A study of Mus musculus and Rattus norvegicus with 32 samples.

Results

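The 8 genes described here were grouped as enzymes that oxidise trichloroethylene (TCE, a chlorinated solvent) or handle its aldehyde and acid products. They were Cyp2e1, Adh1, Aldh2, Aldh1a1, Aldh1a7, Aldh3a1, Gstz1 and Ephx2. Their probe sets were taken from the mouse and rat liver arrays of a study of TCE, wherever the platform annotation gave a probe set 1 gene symbol and that symbol was in the list. This gave 12 of 12422 mouse probe sets, covering all 8 genes, and 10 of 8740 rat probe sets, covering 5 genes. No rat probe set matched Adh1, Aldh1a7 or Gstz1. The rat matches were 3 probe sets for Cyp2e1, 4 for Ephx2 and 1 each for Aldh2, Aldh1a1 and Aldh3a1.

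Male B6C3F1 mice and male SD rats received TCE in corn oil at 1500 mg/kg by gavage, or corn oil alone, and were sampled for liver 18 h after dosing ended. Single-dose animals were 8 weeks old, and animals dosed daily for 14 days were 10 weeks old. With 4 arrays in each of 8 groups there were 32 arrays, 16 for each species, hybridised with biotin-labelled cRNA made from polyA RNA. The labels do not say whether the 4 arrays of a group came from separate animals, so p-values measure only the spread between these arrays.

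Deposited values were ratios, in which the 4 matching oil arrays (same species and schedule) had a median of 1. A ratio of 1 is therefore the oil median of that schedule, and the levels of different genes, of different species or of oil arrays in the 2 schedules could not be compared. In a piece of liver, less RNA per cell and fewer cells of a type cannot be told apart. Differences are given on the log2 scale, TCE minus oil, with the standard error (SE) from a limma fit to the 16 arrays of a species. P-values were adjusted over all probe sets by the Benjamini-Hochberg method, and a probe set was called where this was under 0.05.

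TCE reaches the liver as a parent compound and is oxidised there mainly by CYP2E1, a cytochrome P450 of the endoplasmic reticulum that is most abundant around the central vein. Oxidation yields chloral, which alcohol dehydrogenases and carbonyl reductases reduce to trichloroethanol and aldehyde-oxidising enzymes turn into trichloroacetic acid, an activator of the nuclear receptor PPARα. GSTZ1 dechlorinates dichloroacetic acid, another acid product, and is also the maleylacetoacetate isomerase of tyrosine breakdown. EPHX2, the soluble epoxide hydrolase, hydrolyses fatty acid epoxides and is in none of the steps above.

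Several features of the arrays bear on all values. For each array, Gapdh control probe sets gave a value: the log2 deposited ratio of the 3′ probe set minus that of the 5′ probe set. Both ratios were set against the matching oil arrays, so this Gapdh value shows RNA or cRNA integrity only relative to those arrays. It does not give an array's own integrity, and its level could not be compared between species or schedules. Values above 1 were found for 10 arrays, 9 of them from TCE groups. The high values fell on 3 of 4 mouse single-dose TCE arrays, 3 of 4 mouse repeated-dose TCE arrays, 1 mouse repeated-dose oil array, 1 rat single-dose TCE array and 2 rat repeated-dose TCE arrays. The rat single-dose oil array 3 carried exocrine pancreas markers at a mean ratio of 119.15 over 10 probe sets, against 0.83 to 1.64 on the other 7 single-dose rat arrays. Such markers were also raised on 4 mouse arrays, with mean ratios of 15.55 and 25.46 (single-dose TCE arrays 3 and 4), 11.71 (repeated-dose TCE array 1) and 13.00 (single-dose oil array 3). Mean ratios of the hepatocyte list (12 mouse probe sets) were 0.69 to 0.79 on mouse single-dose TCE arrays and 0.93 to 1.04 on their oil arrays, and 0.67 to 0.78 and 0.91 to 1.14 after repeated doses. In rat (25 probe sets) they were 4.00 to 10.77 on single-dose TCE arrays and 0.87 to 1.15 on oil arrays, and 0.98 to 1.76 and 0.90 to 1.38 after repeated doses. The 3 probe sets of that list called after a single dose in rat were all of Apob, with differences of 2.56, 4.59 and 6.50 (log2). The list's median ratio on each array was 0.79 to 0.98 on these TCE arrays and 0.86 to 1.08 on their oil arrays. As ratios give no level, the labelled tissue could not be checked by how abundant its markers were. The part of RNA integrity and of other cells in the results was not tested beyond the alternatives given beside them.

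Of the 8 genes, Aldh1a1 in rat liver was the one called against oil. The rat Aldh1a1 probe set rose 2.93-fold after 1 dose and 6.85-fold after 14 doses, while none of the 12 mouse probe sets was called on either schedule. In mouse liver 0 of 12 were called after 1 dose, where 8.3% of all probe sets were called, and 0 of 12 after repeated doses, where 10.7% were. At an unadjusted p under 0.05 limma had 3011 and 3422 of 12422 mouse probe sets. After 1 dose these included Gstz1, the less variable Aldh3a1 probe set and all Aldh2 probe sets but the least variable. After repeated doses they included Cyp2e1, Gstz1, the less variable Aldh3a1 probe set and the least and most variable Aldh2 probe sets. In rat liver 1 of 10 was called after 1 dose, against 1.72% of all probe sets, and 1 of 10 after repeated doses, against 2.81%.

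The members did not share a direction. Their median difference in mouse was -0.10 for the single dose and -0.12 for repeated doses, beside -0.09 and -0.15 for all probe sets. In rat it was 0.72 for the single dose and 0.13 for repeated doses, beside 0.14 and 0.04 for all probe sets, and 4 of the 10 rat probe sets belong to Ephx2, whose values scattered widely. After 1 dose 4 mouse members were higher and 8 lower in TCE livers, and after repeated doses 3 were higher and 9 lower. In rat 7 were higher and 3 lower after 1 dose, and 6 were higher and 4 lower after repeated doses.

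Cyp2e1, the P450 that starts TCE oxidation, was not called in any TCE comparison. The mouse probe set had ratios of 1.004, 0.839, 0.958 and 1.029 on single-dose TCE arrays, against 1.047, 0.994, 0.935 and 1.006 on oil arrays. After repeated doses the ratios were 0.745, 0.707, 0.8 and 0.84 on TCE arrays, against 1.261, 1.058, 0.942 and 0.793 on oil arrays. The groups overlapped on both schedules, although after repeated doses oil array 4 was the single oil array inside the TCE range. The difference was -0.06 ± 0.15 (SE, n = 4 per group) after 1 dose (limma adjusted p = 0.854) and -0.37 ± 0.15 (SE, n = 4 per group) after repeated doses (limma adjusted p = 0.117). With the Gapdh value as a covariate the repeated-dose value was -0.48, at a limma adjusted p of 0.0357, and with quantile normalization it was -0.11 (limma adjusted p = 0.9).

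The 3 rat Cyp2e1 probe sets gave differences of 0.01, -0.30 and -0.18 for the single dose, then 0.37, 0.20 and 0.45 for repeated doses, none of them called. Ratios of M20131cds_s_at on single-dose TCE arrays were 0.801, 0.773, 0.836 and 0.831, against 0.857, 0.899, 1.178 and 1.101 on oil arrays, so all 4 TCE arrays lay below all 4 oil arrays. After repeated doses its TCE ratios were 1.061, 1.179, 1.161 and 1.205, all above the oil ratios of 1.036, 0.956, 1.054 and 0.964. S48325_s_at had the smallest adjusted p of the 3 after repeated doses, with a difference of 0.45 ± 0.18 (SE, n = 4 per group; limma adjusted p = 0.184). Groups without overlap were common on these arrays, at 12.5% of all rat probe sets after 1 dose and 12.3% after repeated doses.

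Adh1, a cytosolic alcohol dehydrogenase that can reduce chloral, had 1 mouse probe set. Its ratios on single-dose TCE arrays were 1.063, 0.78, 0.956 and 1.063, against 1.021, 0.963, 0.979 and 1.215 on oil arrays. On repeated-dose TCE arrays they were 0.954, 0.858, 0.874 and 0.91, against 1.128, 1.111, 0.862 and 0.889 on oil arrays. The groups overlapped both times, and the differences of -0.12 and -0.14 had 95% confidence intervals of -0.44 to 0.20 and -0.46 to 0.18.

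Aldh2 encodes the mitochondrial aldehyde dehydrogenase best known for clearing acetaldehyde. Its 3 mouse probe sets, told apart here by their within-group SDs of 0.49, 0.43 and 0.20 (log2), disagreed. The ratios of the most variable one were 0.418, 0.551, 0.605 and 0.349 on single-dose TCE arrays, against 0.943, 1.013, 0.987 and 1.052 on oil arrays, with no overlap. The TCE array with ratio 0.551 had a Gapdh value of 0.09, and the other 3 had values above 1. The difference of -1.09 ± 0.34 (SE, n = 4 per group) had a limma adjusted p of 0.0606, and the second probe set (SD 0.43) gave -0.80 ± 0.30 (SE, n = 4 per group; limma adjusted p = 0.112). Fitted on the single-dose arrays alone, both were called, at limma adjusted p of 0.0268 and 0.0375. With the Gapdh value as a covariate they were -0.54 and -0.45 (limma adjusted p = 0.542 and 0.601). The least variable probe set (SD 0.20) gave -0.07 ± 0.16 (SE, n = 4 per group) after 1 dose, with overlapping groups (limma adjusted p = 0.831).

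After repeated doses the most variable Aldh2 probe set was low on 2 TCE arrays, with ratios of 0.675, 0.294, 0.318 and 0.878, against 0.527, 1.004, 1.048 and 0.996 on oil arrays. The low oil ratio belongs to the oil array with a Gapdh value of 1.46, and the 2 lowest TCE ratios to arrays with Gapdh values of 1.71 and 1.30. The TCE array with the highest ratio, TCE array 4, had a Gapdh value of 1.48. Without that array the differences were -1.11 for this probe set and -0.88 for the second, at limma adjusted p of 0.0471 and 0.0467, against -0.83 and -0.58 (limma adjusted p = 0.126 and 0.219) with it. Without TCE array 2 they were -0.59 and -0.35 (limma adjusted p = 0.317 and 0.503), and with quantile normalization -0.45 and -0.31 (limma adjusted p = 0.65 and 0.705). The least variable probe set had ratios of 0.825, 0.858, 0.694 and 0.94 on repeated-dose TCE arrays, below the oil ratios of 1.32, 0.978, 1.022 and 0.972 on all 4 arrays, with a difference of -0.37 ± 0.16 (SE, n = 4 per group; limma adjusted p = 0.158).

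Rat Aldh2 (rc_AI172017_at) had ratios of 0.64, 0.623, 0.794 and 0.692 on single-dose TCE arrays, against 1.008, 1.025, 0.906 and 0.992 on oil arrays. The groups did not overlap, but the difference of -0.52 ± 0.19 (SE, n = 4 per group) was not called (limma adjusted p = 0.164). After repeated doses the TCE ratios of 1.078, 0.715, 0.666 and 1.219 spanned the oil ratios of 1.057, 0.943, 0.924 and 1.101. The difference there was -0.17 ± 0.19 (SE, n = 4 per group; limma adjusted p = 0.679).

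**Figure D1:**
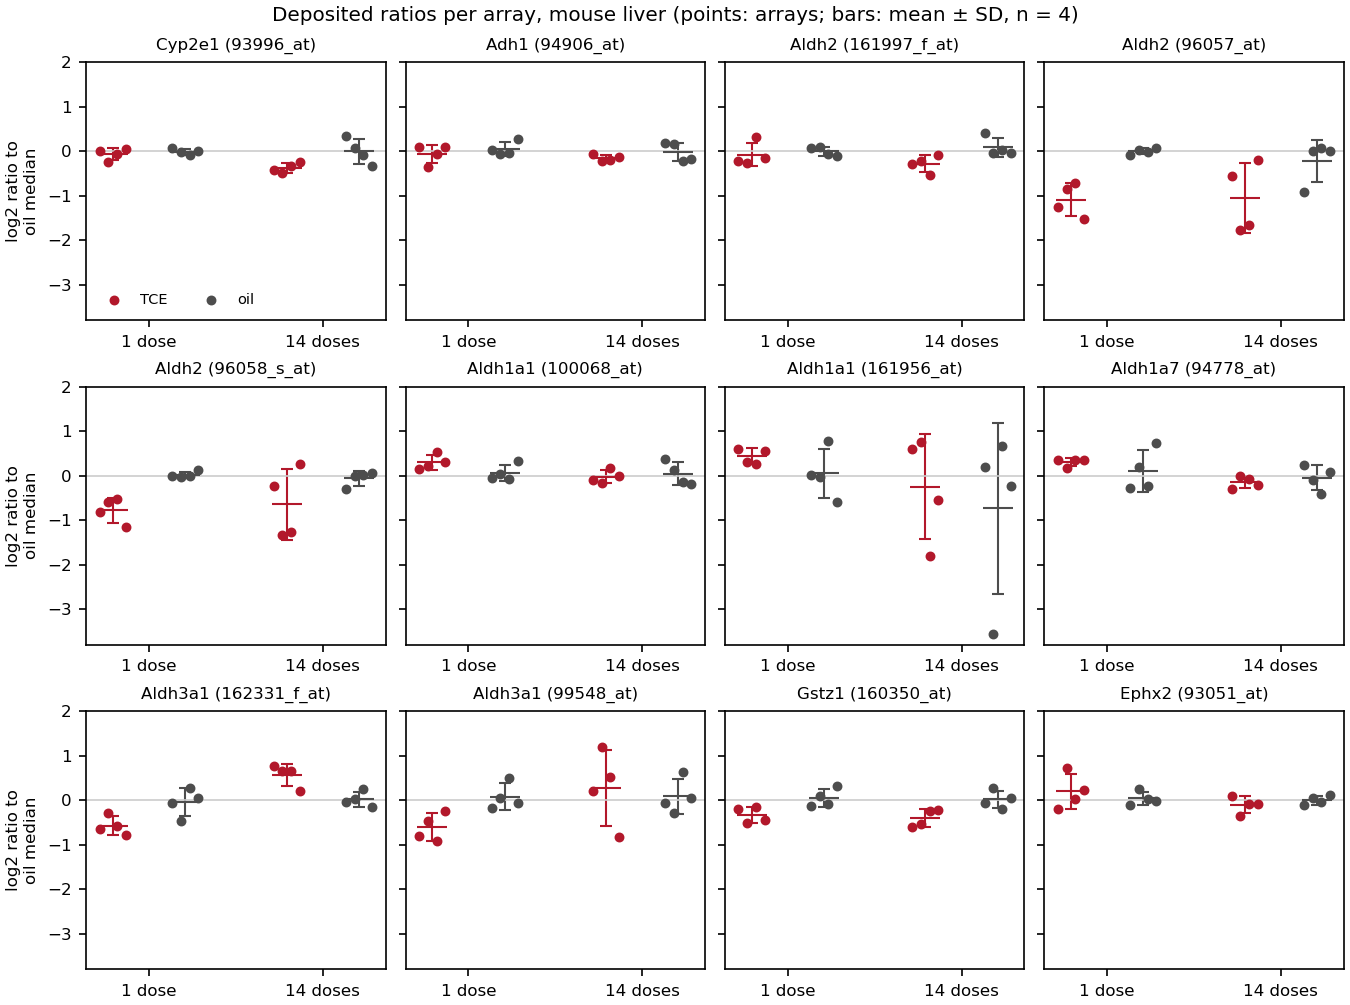
Log2 ratio to the oil median for each of the 12 mouse probe sets, after 1 dose and 14 daily doses, with TCE arrays in red left of oil arrays in grey. Points are arrays and bars are the mean ± SD (n = 4). The most variable Aldh2 probe set, the second of the 3 drawn, lay at ratios of 0.349 to 0.605 (linear scale) on single-dose TCE arrays, while Cyp2e1 and Adh1 overlapped their oil arrays.

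Aldh1a1 encodes the cytosolic retinaldehyde dehydrogenase, which also oxidises other aldehydes and is abundant in liver. In rat liver (AF001898_at) its ratios were 2.756, 2.768, 2.839 and 2.508 on single-dose TCE arrays, against 0.523, 0.826, 1.174 and 1.458 on oil arrays. After repeated doses they were 7.653, 6.365, 9.416 and 5.223 on TCE arrays, against 0.952, 1.048, 1.334 and 0.818 on oil arrays. Every TCE array lay above every oil array on both schedules.

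The rat Aldh1a1 difference was 1.55 ± 0.28 (SE, n = 4 per group) after 1 dose, with a 95% confidence interval of 0.94 to 2.15 and a limma adjusted p of 0.019. After repeated doses it was 2.78 ± 0.28 (SE, n = 4 per group), with an interval of 2.17 to 3.38 and a limma adjusted p of 0.000186. The fold intervals were 1.92 to 4.45 and 4.5 to 10.4. The repeated-dose call held with any 1 array left out (2.63 to 2.92, limma adjusted p up to 0.00117).

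With any 1 array left out the single-dose difference stayed at 1.27 to 1.77, but the call did not always hold. It was lost without oil array 2 (limma adjusted p = 0.0597), TCE array 1 (limma adjusted p = 0.051) or TCE array 4 (limma adjusted p = 0.0535), with the difference at 1.49, 1.54 and 1.59. It was kept without the oil array that carried pancreas markers, at 1.66 (limma adjusted p = 0.0282). It was also lost under quantile normalization (1.11, limma adjusted p = 0.392), on the single-dose arrays alone (1.55, limma adjusted p = 0.0637) and without the 3 rat arrays of high Gapdh value, single-dose TCE array 4 among them (1.59, limma adjusted p = 0.0591). On the 2 repeated-dose TCE arrays with a high Gapdh value the ratios were 9.416 and 5.223, the highest and lowest of the 4. The repeated-dose effect was larger than the single-dose effect by 1.23 ± 0.40 (SE, n = 4 per group), which was not called (limma adjusted p = 0.418). No rat probe set was called in that comparison (0% of 8740; 818 at an unadjusted p under 0.05), the 10 members included.

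**Figure D2:**
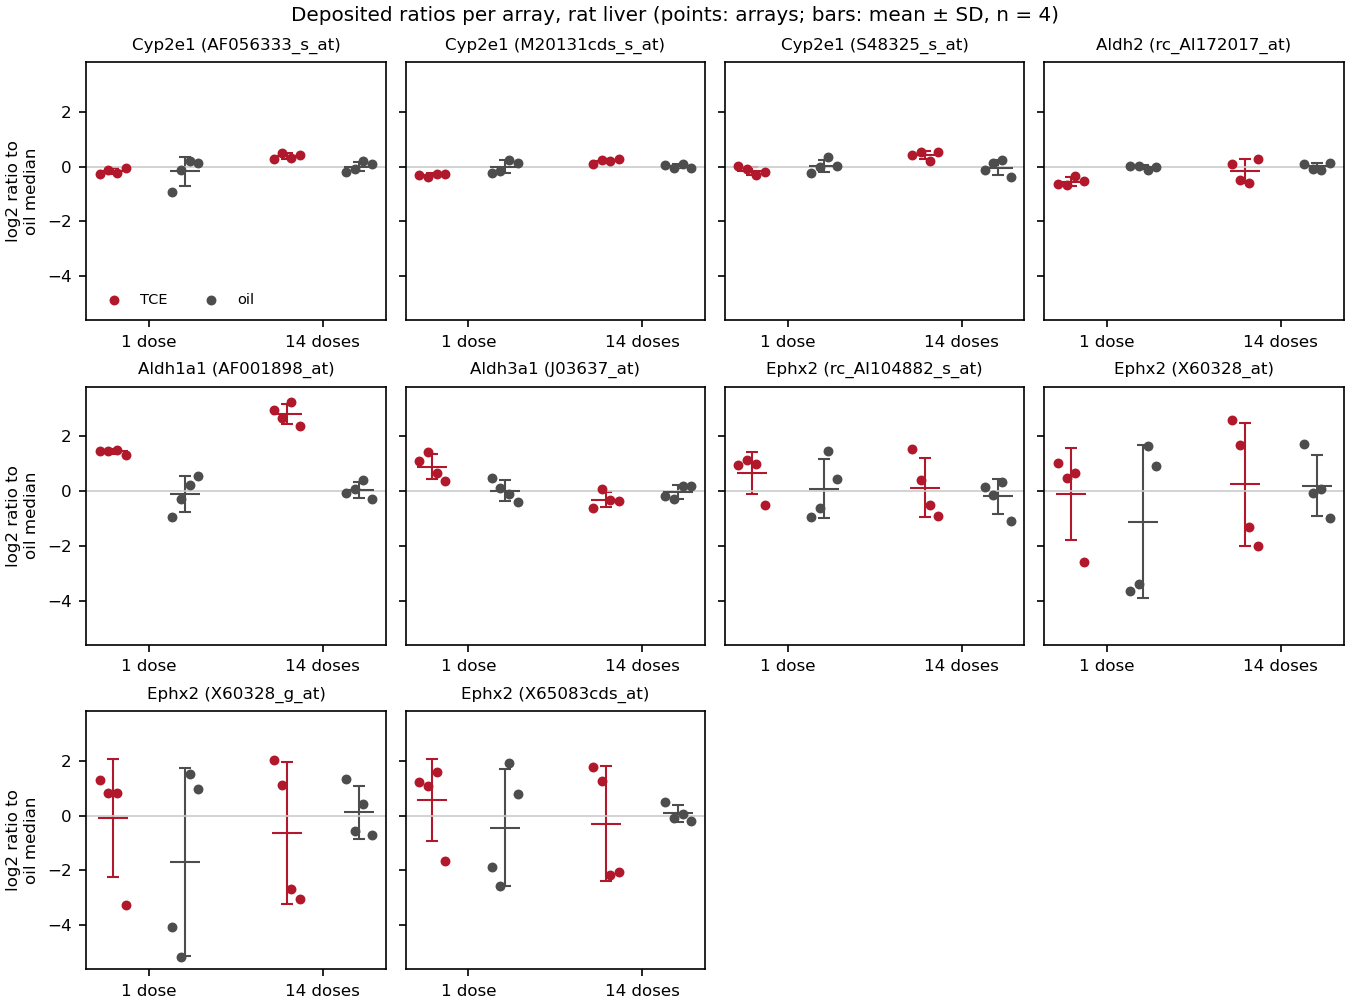
Log2 ratio to the oil median for each of the 10 rat probe sets, after 1 dose and 14 daily doses, with TCE arrays in red left of oil arrays in grey. Points are arrays and bars are the mean ± SD (n = 4). Aldh1a1 stands at 2.508 to 2.839 (linear ratio) on single-dose and 5.223 to 9.416 on repeated-dose TCE arrays, clear of its oil arrays, and the Ephx2 probe sets spread over several log2 units within a group.

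Mouse Aldh1a1 was not called. Its less variable probe set had ratios of 1.108, 1.157, 1.449 and 1.238 on single-dose TCE arrays, against 0.966, 1.034, 0.951 and 1.253 on oil arrays, of which the last lay within the TCE range. After repeated doses the TCE ratios were 0.941, 0.893, 1.127 and 1.001, all within the span of the oil ratios of 1.306, 1.089, 0.911 and 0.884. The differences were 0.24 ± 0.16 (SE, n = 4 per group; limma adjusted p = 0.401) and -0.07 ± 0.16 (SE, n = 4 per group; limma adjusted p = 0.823). The other mouse probe set had a within-group SD of 1.17 and differences of 0.39 ± 0.76 and 0.48 ± 0.76 (SE, n = 4 per group), which leave its direction undetermined.

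Aldh1a7, a close relative of Aldh1a1, had 1 mouse probe set. Its ratios were 1.286, 1.13, 1.284 and 1.283 on single-dose TCE arrays, against 0.827, 1.151, 0.849 and 1.667 on oil arrays, and 0.815, 0.988, 0.952 and 0.869 on repeated-dose TCE arrays, against 1.181, 0.942, 0.754 and 1.058 on oil arrays. The groups overlapped on both schedules, with differences of 0.21 ± 0.21 and -0.10 ± 0.21 (SE, n = 4 per group; limma adjusted p = 0.598 and 0.79). Like Aldh1a1 it lay slightly above oil after 1 dose and slightly below after repeated doses, neither of them called.

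Both genes lie on mouse chromosome 19, and the windows around their starts are alike, which is why they are shown. RefSeq (GRCm38.p6) places the windows, from 250 bases before to 50 bases after each start, at chr19:20601718-20602017 on the plus strand for Aldh1a1 and chr19:20727507-20727806 on the minus strand for Aldh1a7. Each is written 5′ to 3′ along its gene, and capitals mark the longest stretch that is identical in both, 65 bases (157 to 221 of the 300).
Aldh1a1: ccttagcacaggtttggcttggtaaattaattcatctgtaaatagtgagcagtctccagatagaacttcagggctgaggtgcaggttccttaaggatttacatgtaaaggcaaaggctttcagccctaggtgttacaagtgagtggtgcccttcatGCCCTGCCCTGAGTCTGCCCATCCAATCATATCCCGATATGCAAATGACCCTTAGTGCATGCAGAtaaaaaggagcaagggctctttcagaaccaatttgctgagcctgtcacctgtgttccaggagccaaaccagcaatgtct
Aldh1a7: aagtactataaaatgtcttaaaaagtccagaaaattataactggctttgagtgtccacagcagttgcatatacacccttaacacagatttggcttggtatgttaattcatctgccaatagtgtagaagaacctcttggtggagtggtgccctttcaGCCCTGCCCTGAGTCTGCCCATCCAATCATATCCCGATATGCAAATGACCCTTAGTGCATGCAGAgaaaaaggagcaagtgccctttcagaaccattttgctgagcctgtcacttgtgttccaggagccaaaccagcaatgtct
An alignment of the windows had 224 identical bases of 282 aligned, or 79.4%. The shared stretch holds a CCAAT box, a motif that 37.4% of 32851 RefSeq mouse promoter windows of this length hold on either strand. A second RefSeq start of Aldh1a1, at chr19:20492333-20492632, matched the Aldh1a7 window at 171 of 262 aligned bases. None of the 7 member windows found in the table, for Cyp2e1, Adh1, Gstz1, Aldh1a1 and Aldh1a7, held AGGTCA, the single repeat unit of PPAR and RXR sites, on either strand. The core GCGTG of the aryl hydrocarbon receptor and the core TGACNNNGC of the antioxidant response element were not found in them. The sequence TATAAA occurred once in the Cyp2e1 window, once at the upstream end of the Aldh1a7 window, and in none of the other 5. These letters occurred in 16.3%, 32.4%, 12.4% and 13.6% of all windows, in the order named, and their presence or absence says nothing of a factor. Aldh2, Aldh3a1 and Ephx2 had no entry. Whether the rat probe set AF001898_at also binds transcripts of close relatives of Aldh1a1 was not tested.

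Aldh3a1, a cytosolic aldehyde dehydrogenase known as a target of the aryl hydrocarbon receptor, gave differences of opposite sign in the 2 species on each schedule, none of them called against oil. In mouse, the less variable probe set had ratios of 0.634, 0.825, 0.671 and 0.585 on single-dose TCE arrays, against 0.962, 0.723, 1.215 and 1.038 on oil arrays. After repeated doses it had 1.714, 1.565, 1.58 and 1.158 on TCE arrays, against 0.976, 1.024, 1.189 and 0.894 on oil arrays. On both schedules the groups overlapped by 1 TCE array and 1 oil array. The differences were -0.52 ± 0.19 and 0.55 ± 0.19 (SE, n = 4 per group; limma adjusted p = 0.097 and 0.0706).

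The difference between the mouse schedules for this probe set was 1.08 ± 0.26 (SE, n = 4 per group), repeated minus single, at a limma adjusted p of 0.0629, and was not called. In that comparison 0 of 12 members were called, against 0.877% of all probe sets (2338 had an unadjusted p under 0.05). Leaving out single-dose oil array 2 brought the value to 1.22 and the limma adjusted p to 0.0428. The more variable mouse probe set gave -0.69 ± 0.35 after 1 dose and 0.19 ± 0.35 after repeated doses (SE, n = 4 per group), with a schedule difference of 0.88 ± 0.49 (SE, n = 4 per group; limma adjusted p = 0.357).

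Rat Aldh3a1 (J03637_at) had ratios of 2.15, 2.666, 1.586 and 1.292 on single-dose TCE arrays, against 1.394, 1.072, 0.928 and 0.755 on oil arrays. After repeated doses it had 0.658, 1.041, 0.79 and 0.771 on TCE arrays, against 0.877, 0.817, 1.124 and 1.123 on oil arrays. The single-dose groups overlapped by TCE array 4 and oil array 1, and TCE array 2 lay inside the oil range after repeated doses. The differences were 0.87 ± 0.25 and -0.28 ± 0.25 (SE, n = 4 per group; limma adjusted p = 0.0902 and 0.593), and the repeated minus single difference was -1.15 ± 0.36 (SE, n = 4 per group; limma adjusted p = 0.413), none of them called.

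Gstz1, which acts on dichloroacetic acid and maleylacetoacetate, had 1 mouse probe set. It had ratios of 0.874, 0.703, 0.903 and 0.729 on single-dose TCE arrays, against 0.914, 1.061, 0.939 and 1.242 on oil arrays. After repeated doses it had 0.657, 0.688, 0.846 and 0.857 on TCE arrays, against 0.963, 1.204, 0.876 and 1.037 on oil arrays. All TCE arrays lay below all oil arrays on both schedules, with differences of -0.37 ± 0.16 and -0.42 ± 0.16 (SE, n = 4 per group) that were not called (limma adjusted p = 0.172 and 0.105). Gstz1 was 1 of 4 mouse members without overlap after 1 dose and 1 of 2 after repeated doses, on arrays where 17.6% and 17% of all probe sets had none.

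Mouse Ephx2, with 1 probe set, had overlapping groups on both schedules. The ratios were 0.871, 1.662, 1.019 and 1.167 on single-dose TCE arrays, against 0.932, 1.193, 1.014 and 0.986 on oil arrays. On repeated-dose TCE arrays they were 1.069, 0.776, 0.948 and 0.947, against 0.926, 1.03, 0.97 and 1.08 on oil arrays. The differences were 0.16 ± 0.18 and -0.11 ± 0.18 (SE, n = 4 per group; limma adjusted p = 0.653 and 0.754).

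The 4 rat Ephx2 probe sets varied far more between arrays of a group than the other rat members did, with within-group SDs of 0.91 to 2.44 (log2) against 0.13 to 0.40. For X60328_g_at the single-dose ratios were 2.45, 1.766, 1.76 and 0.103 on TCE arrays, against 0.0594, 0.0279, 2.861 and 1.941 on oil arrays, a 103-fold range among oil arrays. After repeated doses they were 4.025, 2.178, 0.156 and 0.12 on TCE arrays, against 2.518, 0.67, 1.33 and 0.613 on oil arrays. Each group held both low and high arrays, except for the repeated-dose oil arrays, which stayed nearer to 1.

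The other 3 rat Ephx2 probe sets were low on the same arrays. On single-dose TCE array 4 they were 0.706, 0.165 and 0.316, and on single-dose oil arrays 1 and 2 they were between 0.0799 and 0.659. On repeated-dose TCE arrays 3 and 4 they were between 0.224 and 0.701. The 3 low TCE arrays had Gapdh values of 1.90, 2.07 and 1.60 and were the 3 rat arrays with a value above 1. On the other rat TCE arrays all 4 probe sets were at 1.314 or higher. The 2 low oil arrays had Gapdh values of 0.20 and -0.20. The part of RNA integrity in the low Ephx2 values was not tested. None of the 4 was called, and the differences ranged from 0.56 to 1.60 after 1 dose and from -0.77 to 0.33 after repeated doses, with SEs of 0.60 to 1.57. Without the oil array that carried pancreas markers the single-dose differences were 1.02 to 2.67, again none called. The least variable of them, rc_AI104882_s_at, had 95% confidence intervals of -0.71 to 1.84 and -0.95 to 1.60.

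**Figure D3:**
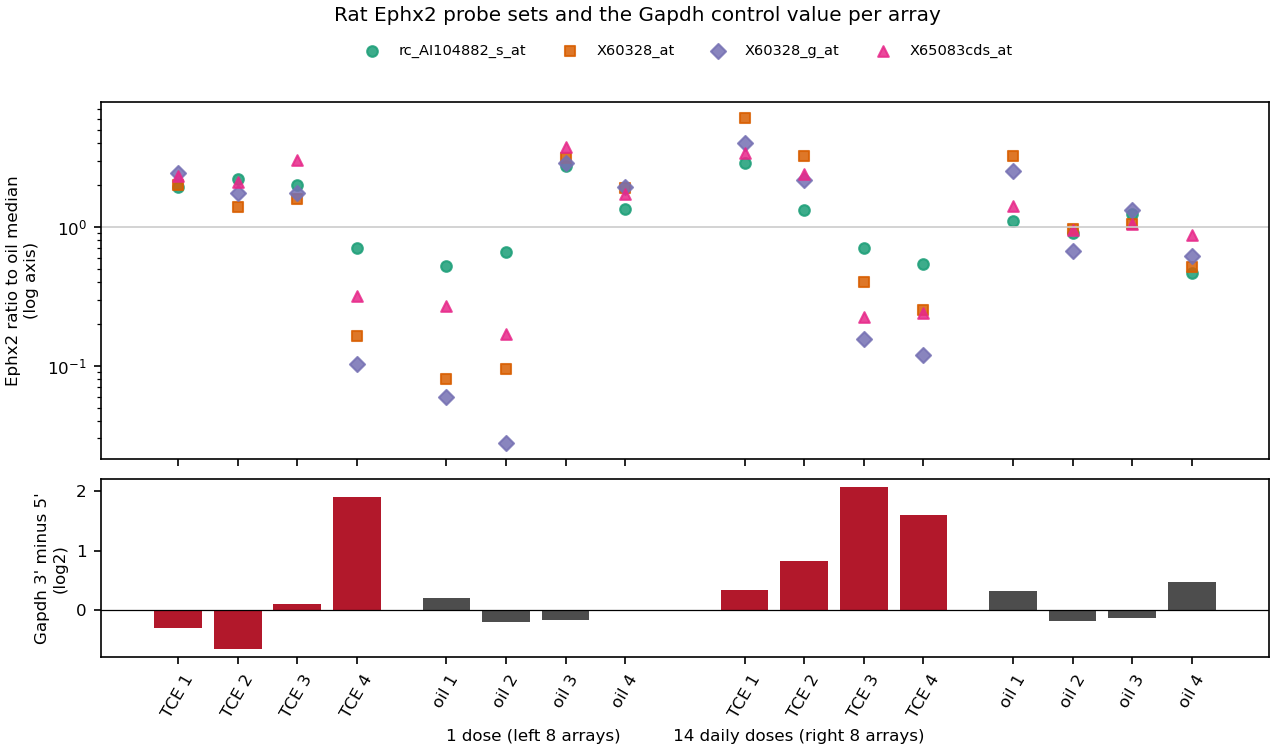
Deposited ratio of the 4 rat Ephx2 probe sets on each of the 16 rat arrays (upper panel, log axis, 1 is the oil median of the schedule) above the Gapdh 3′ minus 5′ log2 value of the same array (lower panel, TCE in red, oil in grey). All 4 probe sets were at 0.706 or lower on single-dose TCE array 4, repeated-dose TCE arrays 3 and 4 and single-dose oil arrays 1 and 2, with Gapdh values of 1.90, 2.07 and 1.60 on these TCE arrays and 0.20 and -0.20 on these oil arrays.

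The species were set against each other for the 5 genes measured in both, each relative to its own oil arrays, in a limma fit over 3056 shared gene symbols and 32 arrays. For each gene its least variable probe set stood in. After 1 dose 2 of 5 members were called, against 4.22% of all genes, and after repeated doses 2 of 5, against 10.5%. Aldh1a1 was called on both schedules, with the mouse effect below the rat effect.

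The mouse minus rat difference for Aldh1a1 was -1.31 ± 0.32 (SE, n = 4 per group) after 1 dose, with an interval of -1.97 to -0.65 and a limma adjusted p of 0.0188. After repeated doses it was -2.84 ± 0.32 (SE, n = 4 per group), with an interval of -3.50 to -2.18 and a limma adjusted p of 2.83e-06. With any 1 array left out the repeated-dose value stayed between -2.98 and -2.70 (limma adjusted p up to 1.58e-05), and the alternatives gave -3.01 to -2.19 (limma adjusted p up to 0.0151). The single-dose value was -0.94 under quantile normalization, where it was not called (limma adjusted p = 0.59). It was -1.24 with a gene's probe sets averaged (limma adjusted p = 0.137), -1.31 on the single-dose arrays alone (limma adjusted p = 0.0559) and -1.44 without arrays of high Gapdh value (limma adjusted p = 0.145). The last of these kept 1 mouse single-dose TCE array, with its spread taken from the other groups.

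Aldh3a1 differed after 1 dose by -1.40 ± 0.31 (SE, n = 4 per group), mouse minus rat, at a limma adjusted p of 0.00843. After repeated doses the difference was 0.83 ± 0.31 (SE, n = 4 per group; limma adjusted p = 0.0827), or 1.03 with array medians centred (limma adjusted p = 0.0343). The single-dose value was -0.85 under quantile normalization (limma adjusted p = 0.545) and -1.28 without arrays of high Gapdh value (limma adjusted p = 0.17; 1 mouse TCE array kept), not called in either.

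Cyp2e1 differed after repeated doses by -0.57 ± 0.19 (SE, n = 4 per group) at a limma adjusted p of 0.0489, and did not pass after 1 dose (0.24 ± 0.19, SE, n = 4 per group; limma adjusted p = 0.471). That call was lost without any 1 of 13 of the 16 repeated-dose arrays, with values of -0.60 to -0.46 and limma adjusted p up to 0.109. With array medians centred it was -0.37 (limma adjusted p = 0.238), and with quantile normalization -0.23 (limma adjusted p = 0.824). Aldh2 gave 0.45 ± 0.24 and -0.19 ± 0.24, and Ephx2 gave -0.41 ± 0.64 and -0.43 ± 0.64 (SE, n = 4 per group), none called. In mouse the least variable Aldh2 probe set stood in, at -0.07 after 1 dose. The other mouse Aldh2 probe sets gave -1.09 and -0.80, below the rat value of -0.52. Under the alternatives other than leaving out an array, the single-dose Aldh2 difference ran from -0.13 to 0.67.

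**Figure D4:**
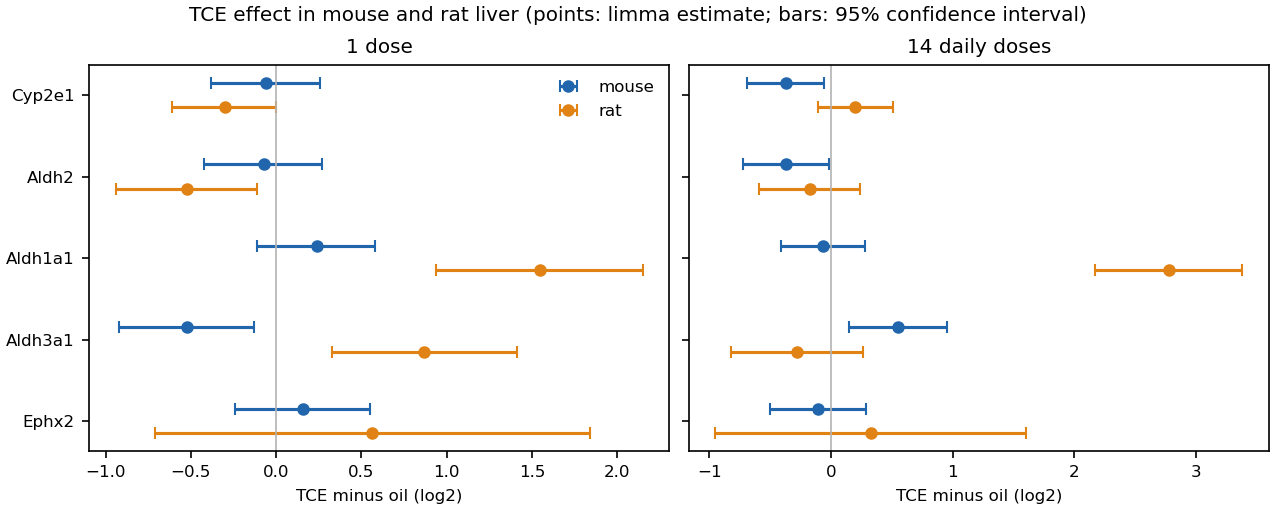
TCE minus oil differences (log2) of the 5 genes measured in both species after 1 dose and 14 daily doses, mouse in blue above rat in orange. Points are limma estimates from the probe set that stands for the gene and bars are 95% confidence intervals. Rat Aldh1a1 lies at 1.55 and 2.78, apart from mouse Aldh1a1 at 0.24 and -0.07, and the Ephx2 interval in rat is the widest. The mouse Aldh2 probe sets not drawn gave -1.09 and -0.80 after 1 dose.

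The rest of the pathway was read from lists chosen with earlier results of these data known, and related genes of these families may share a probe set's signal. Among other aldehyde dehydrogenases and oxidases, 3 of 13 mouse probe sets rose and 1 fell after 1 dose. After repeated doses 2 rose and 1 fell. The list also held Ephx1, an epoxide hydrolase, which was 1 of the 3 that rose after 1 dose, by 0.60. The other probe sets that rose, on both schedules, were the 2 of Aldh3a2. The medians of this list were 0.24 and -0.05 in mouse, beside -0.09 and -0.15 for all probe sets, and 0.14 and 0.24 in rat, beside 0.14 and 0.04. The shares of all probe sets called were 8.3% and 10.7% in mouse and 1.72% and 2.81% in rat. In mouse these calls were 517 higher and 514 lower after 1 dose, and 278 higher and 1053 lower after repeated doses. In rat they were 106 higher and 44 lower, then 189 higher and 57 lower. Aldh3a2, the fatty aldehyde dehydrogenase and a known PPARα target, rose by 1.58 ± 0.15 and 1.70 ± 0.15 in mouse (the probe set with the larger change; SE, n = 4 per group; limma adjusted p = 6.67e-05 and 9.2e-05). Its ratios were 2.44 to 3.25 on single-dose TCE arrays, against 0.84 to 1.08 on oil arrays, and 3.36 to 3.57 on repeated-dose TCE arrays, against 0.965 to 1.36 on oil arrays, so the groups did not overlap on either schedule. Rat Aldh3a2 rose by 1.02 ± 0.20 (SE, n = 4 per group) after repeated doses (limma adjusted p = 0.0157), in 1 of its 3 probe sets and as the 1 called of 11 probe sets of that list, and 0 of 11 were called after 1 dose. Aldh7a1, an aldehyde dehydrogenase of lysine breakdown, fell by 0.60 after 1 dose in mouse in 1 of its 3 probe sets, the others not called, and Xdh, the xanthine dehydrogenase, fell by 0.92 after repeated doses.

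Among other P450s and their electron donors, 1 of 23 mouse probe sets rose and 4 fell after 1 dose, and 2 rose and 5 fell after repeated doses, with list medians of -0.27 and -0.23. Cyp2b10, a target of the nuclear receptor CAR, rose by 1.31 ± 0.21 and 1.08 ± 0.21 (SE, n = 4 per group; limma adjusted p = 0.00276 and 0.00731). Cyp2f2, a P450 that also metabolises small lipophilic toxicants, fell by 1.26 after 1 dose and by 0.92 after repeated doses. Cyp3a25 fell by 0.98 after 1 dose. Cyp3a16 fell by 2.19 and Cyp2j5 by 1.59 after repeated doses. In rat 0 of 39 rose and 1 fell after 1 dose (Cyb5r3, a cytochrome b5 reductase, by 0.84 in 1 of its 5 probe sets). After repeated doses 0 of 39 were called, and the rat medians were 0.04 and 0.03. Over all probe sets the medians were -0.09 and -0.15 in mouse (8.3% and 10.7% called) and 0.14 and 0.04 in rat (1.72% and 2.81%).

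The list of other alcohol dehydrogenases and carbonyl reductases also held Cat, which is neither. It had 0 of 17 mouse probe sets up and 2 down on each schedule, with medians of -0.19 and 0.00. Dhrs3 and Adh5, the formaldehyde-clearing alcohol dehydrogenase, fell by 0.84 and 0.56 after 1 dose, and Akr1c13 and Cat, the catalase gene, fell by 0.81 and 0.61 after repeated doses. For Adh5 and Cat this was 1 of 2 probe sets each. In rat 1 of 19 rose and none fell on each schedule, with medians of 0.25 and 0.30: Akr7a3, an aldo-keto reductase of aflatoxin aldehyde, at 1.95 ± 0.24 and 2.20 ± 0.24 (SE, n = 4 per group; limma adjusted p = 0.00243 and 0.00028). Over all probe sets the medians were -0.09 and -0.15 in mouse (8.3% and 10.7% called) and 0.14 and 0.04 in rat (1.72% and 2.81%).

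Among glutathione enzymes, 3 of 36 mouse probe sets rose and 3 fell after 1 dose, including Gstm3, which rose by 1.14, and Gstm6 (1 of its 2 probe sets) and Gstt1, which fell by 1.29 and 1.13. After repeated doses 1 rose and 4 fell, including Mgst1, Kyat3 and Gstp1, which fell by 0.87, 0.76 and 0.73. In rat 4 of 45 rose and 1 fell after 1 dose, and 5 rose and 1 fell after repeated doses. The medians of this list were -0.16 and -0.28 in mouse and 0.08 and 0.10 in rat. Those of all probe sets were -0.09 and -0.15 in mouse (8.3% and 10.7% called) and 0.14 and 0.04 in rat (1.72% and 2.81%). Rat Gsta3, a glutathione transferase, had differences of 2.29, 2.66 and 2.73 in 3 called probe sets after the single dose, and of 3.68, 3.73 and 4.02 in the same probe sets after repeated doses (limma adjusted p = 2.65e-06 for S82820mRNA_s_at after repeated doses).

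The glucuronidation list had 1 of 5 mouse probe sets called after 1 dose (Ugdh, which makes the glucuronide donor, up by 0.82) and 0 of 5 after repeated doses, and 0 of 8 in rat on either schedule. Its medians were 0.35 and -0.14 in mouse and 0.25 and 0.15 in rat. Around Gstz1, 0 of 11 mouse probe sets rose and 1 fell after 1 dose (Agxt, the glyoxylate aminotransferase, by 0.77), and 2 fell after repeated doses (Tat and Hgd, enzymes of tyrosine breakdown, by 0.59 and 0.54). In rat 0 of 18 were called there on either schedule. These medians were -0.30 and -0.34 in mouse and -0.44 and -0.04 in rat. Those of all probe sets were -0.09 and -0.15 in mouse (8.3% and 10.7% called) and 0.14 and 0.04 in rat (1.72% and 2.81%).

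Members were also described by the genes whose log2 ratios ran most like theirs over the 16 arrays of a species. These correlations share the groups, the arrays and the array scaling, and carry no test. Rat Aldh1a1 ran closest to Gsta3 (Pearson r = 0.97 and 0.93 for 2 probe sets) and to Pex11a, a peroxisome proliferation gene (r = 0.92). Mouse Cyp2e1 ran closest to Alb (r = 0.97), Serpina1b (r = 0.96) and Mup3 (r = 0.96), genes of secreted liver proteins. Mouse Gstz1 ran closest to Cyp2c70 (r = 0.92), Slc22a30 (r = 0.91) and Ctsb (r = 0.91). Mouse Aldh1a1 ran closest to Uchl5 (r = 0.88), Mtpn (r = 0.87) and Actr6 (r = 0.86). Mouse Ephx2 reached 0.80 with Usp5 and 0.79 with Ibsp and Ddx56. Rat Cyp2e1 reached 0.81 with Cyp2a2 and 0.80 with Gstm2 and Serpina3c, and rat Ephx2 reached 0.84 with Crybb2, 0.81 with Mlf1 and 0.78 with Ugdh.

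Cyp2e1 and Aldh1a1 are both enriched in hepatocytes around the central vein, so a list of pericentral genes was read beside them. In mouse 0 of 10 rose and 1 fell after 1 dose, and 1 rose and 4 fell after repeated doses. The medians were -0.54 and -0.38, beside -0.09 and -0.15 for all probe sets, of which 8.3% and 10.7% were called. In rat 0 of 18 rose and 1 fell after 1 dose, and 0 rose and 3 fell after repeated doses. The medians were -0.59 and -0.34, beside 0.14 and 0.04 for all probe sets, of which 1.72% and 2.81% were called. The pericentral rat probe sets that fell were all of Glul, the glutamine synthetase of the innermost pericentral cells. It fell by 1.21 after 1 dose and by 1.54 to 2.17 after repeated doses. In mouse the 2 called Glul probe sets had opposite signs after repeated doses, at 0.89 and -1.27. A list of periportal genes, of hepatocytes around the portal vein, had medians of -0.28 and -0.55 in mouse and -0.11 and 0.08 in rat. In mouse 0 of its 10 probe sets rose, while 1 fell after 1 dose (Cyp2f2, also in the P450 list) and 2 after repeated doses (Cyp2f2 among them). In rat 0 of 15 rose and 1 fell on each schedule, Pck1 by 1.40 and 1.61. Among markers of other cells in rat, 0 of 10 macrophage, 0 of 5 cholangiocyte, 0 of 9 lymphocyte and 0 of 10 exocrine pancreas probe sets were called on either schedule. The exocrine pancreas list nevertheless had median differences of -0.91 and -0.01 (log2), where single-dose oil array 3 carried these markers. Those of the cholangiocyte list were 0.18 and 0.12, and those of the lymphocyte list 0.24 and -0.21. The macrophage list had median differences of -0.76 and -0.66 (log2), beside 0.14 and 0.04 for all probe sets. Its median ratio per array was 0.42 to 1.0 on single-dose TCE arrays and 0.82 to 1.22 on oil arrays. On repeated-dose arrays it was 0.54 to 0.68 with TCE and 0.85 to 1.31 with oil, without overlap. The list's mean ratio did overlap after repeated doses, at 0.53 to 1.03 on TCE arrays and 0.84 to 1.25 on oil arrays. After repeated doses 1 of 6 endothelial probe sets fell (Pecam1, by 1.43) and 1 of 21 stellate and matrix probe sets rose (Sparc, by 1.21), and neither list had a call after a single dose. The part of these cells in the Aldh1a1 result was not tested.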

How the data were processed

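Male B6C3F1 mouse and SD rat livers were measured on 32 Affymetrix arrays in 8 groups of 4, per the labels. The authors made signals with MAS5, per the submitters' processing notes (no version stated). The deposited values were linear ratios, which the values show to be set against the oil median within a species and schedule. Signal over background is therefore unknown, and precision is limited by how many arrays there were. Any scaling per array is not stated.

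Control probe sets (66 mouse, 59 rat) were left out, leaving 12422 and 8740. Log2 of the ratio, with no floor, filter or pseudocount, was fitted with limma 3.58.1 (lmFit, eBayes) in R 4.3.3, using 1 mean for each group of a species (16 arrays). Contrasts set TCE against oil on each schedule, the repeated against the single effect and, over 32 arrays and 3056 shared symbols, the mouse effect against the rat effect. Missing values (2 mouse, 11 rat) were left out of the fit. Adjusted p-values are Benjamini-Hochberg, at a threshold of 0.05. The script was tested on simulated data. Symbols came from the platform annotation, which can be old, and promoters from RefSeq GRCm38.p6. Figures used matplotlib 3.10.9 in Python 3.11.15.

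Named genes were the 8 members and those of up to 3 called probe sets per pathway list and comparison. Also named were those of the 3 probe sets of other genes most correlated with Cyp2e1, Aldh1a1, Gstz1 (mouse only) and Ephx2. Ephx1 was named in addition, as a called gene that is neither an aldehyde dehydrogenase nor an oxidase. Members and lists were chosen with earlier results of these data known. Alternatives were quantile normalization, centred array medians, only the groups compared, a replicate block, the Gapdh value as a covariate, leaving out arrays with a Gapdh value above 1, leaving out each array, and averaging a gene's probe sets.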

Additional observations from a re-analysis of the deposited data

Results flagged for a closer look

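Of 88 sets of 4 arrays checked for 1 array far from the others, 7 had one, where chance gives about 5 per 100. Rat Ephx2 gave 4 of them, all on single-dose TCE array 4, with ratios of 0.706 (rc_AI104882_s_at; others 1.95 to 2.2), 0.165 (X60328_at; others 1.39 to 2), 0.103 (X60328_g_at; others 1.76 to 2.45) and 0.316 (X65083cds_at; others 2.12 to 3.03). The 4 probe sets measure 1 gene on 1 array and are not independent. Mouse repeated-dose oil array 1 stood apart for Aldh2, high at 1.32 for the least variable probe set (others 0.972 to 1.02) and low at 0.527 for the most variable (others 0.996 to 1.05). Mouse Aldh1a7 was 1.13 on single-dose TCE array 2, against 1.28 to 1.29 on the other 3.

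Effects that differed between the species, mouse minus rat, were those of Aldh1a1 after 1 dose (-1.31) and after repeated doses (-2.84), Aldh3a1 after 1 dose (-1.40) and Cyp2e1 after repeated doses (-0.57), each tested by a limma interaction contrast and given with its error and alternatives above.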

How the results depend on the processing

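The labels state no pairing by replicate number, so a replicate block was only an alternative. Correlations of deviations between same-numbered TCE and oil arrays were -0.17 to 0.08. Without the same values for differently numbered arrays, these cannot settle whether arrays were paired. Of 1308 alternative values of single members, 1195 kept their direction and side of the threshold, 30 lost a call, 10 gained one, 73 changed sign without a call and 0 reversed a call. Member calls after 1 dose in mouse went to 2 with only the groups compared, against 0; after repeated doses in mouse to 1 with centred medians and 2 with the Gapdh covariate, against 0; after 1 dose in rat to 0 with quantile normalization, with only the groups compared and without arrays of high Gapdh value, against 1. Between species after 1 dose they went to 0 with quantile normalization, 1 with a gene's probe sets averaged, 1 with only the groups compared and 0 without arrays of high Gapdh value, against 2. After repeated doses they were 1 with quantile normalization, only the groups compared, the replicate block or without arrays of high Gapdh value, against 2.

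Calls over all probe sets or genes depended strongly on the setting. For mouse after 1 dose, 1031 calls became 59 with quantile normalization, 278 with the Gapdh covariate and 18 without arrays of high Gapdh value. For mouse after repeated doses, 1331 became 7 with quantile normalization, 388 with only the groups compared and 58 without arrays of high Gapdh value. The mouse schedule difference, 109, became 0 with quantile normalization, 8 with the replicate block, 183 with the covariate and 0 without arrays of high Gapdh value. Rat after 1 dose, 150, became 2 with quantile normalization, 69 with only the groups compared, 59 with the replicate block, 256 with the covariate and 29 without arrays of high Gapdh value. Rat after repeated doses, 246, became 7, 106, 72 and 133 with quantile normalization, only the groups compared, the covariate and without arrays of high Gapdh value. The rat schedule difference, 0, became 1 without arrays of high Gapdh value. The species comparison after 1 dose, 129, became 7 with quantile normalization and 36 without arrays of high Gapdh value, and after repeated doses, 321, became 6 and 160. The causes were not tested. Leaving out arrays of high Gapdh value kept 1 mouse TCE array per schedule, with its spread taken from the other groups.

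With 1 array left out at a time, calls were 519 to 1187 (members 0 to 0) in mouse after 1 dose, 687 to 1271 (members 0 to 3) after repeated doses, and 21 to 118 (members 0 to 1) for their difference. In rat they were 22 to 128 (members 0 to 1), 100 to 316 (members 1 to 1) and 0 to 1 (members 0 to 0). Between species they were 81 to 181 (members 2 to 2) and 254 to 361 (members 1 to 2). The less variable mouse Aldh3a1 probe set after repeated doses was called without TCE array 4 (0.67, limma adjusted p = 0.0462), with centred medians (0.71, limma adjusted p = 0.0356) and with the covariate (0.67, limma adjusted p = 0.0322). Rat Aldh1a1 after repeated doses was 2.25 to 2.87 under the alternatives other than leaving out an array, and called under each. Cyp2e1 between species after repeated doses was -0.57 with the replicate block (limma adjusted p = 0.0678) and with only the groups compared (limma adjusted p = 0.128), and -0.47 without arrays of high Gapdh value (limma adjusted p = 0.373).

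With array medians centred, higher and lower calls were 721 and 355 in mouse after 1 dose (517 and 514 as deposited), 475 and 506 after repeated doses (278 and 1053), and 30 and 48 for their difference (26 and 83). They were 77 and 107 in rat after 1 dose (106 and 44), and between species 110 and 37 after 1 dose (46 and 83) and 88 and 135 after repeated doses (61 and 260). The median of all differences was -0.09 and -0.15 in mouse, 0.14 and 0.04 in rat. Because only ratios were deposited, brightness over background could not be used to weigh a probe set.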
